A study of Homo sapiens with 6 samples.

Results

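The antioxidant enzymes described here were 3 superoxide dismutases (*SOD1*, *SOD2* and *SOD3*), catalase (*CAT*) and 6 glutathione peroxidases (*GPX1*, *GPX2*, *GPX3*, *GPX4*, *GPX7* and *GPX8*), chosen by gene symbol as 10 of the 58336 genes in the deposited count table. A2780, an established cell line labelled as ovarian, was given DMSO vehicle (the control) or 6 µM TH588, a small-molecule inhibitor of MTH1, for 48 h. MTH1 removes oxidized nucleotides from the nucleotide pool. Both groups were the same parental line, which limits the comparison to 1 cell line, and polyA RNA of 3 independent experiments per group (replicates A, B and C) was sequenced.

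Superoxide dismutases convert superoxide into hydrogen peroxide and oxygen, with SOD1 in the cytosol, SOD2 in mitochondria and SOD3 outside the cell. Catalase, mostly in peroxisomes, and the glutathione peroxidases then remove hydrogen peroxide or lipid peroxides, the latter often at the expense of glutathione. GPX1, GPX2, GPX3 and GPX4 are selenoproteins, GPX4 is the one that reduces phospholipid hydroperoxides and restrains ferroptosis, and GPX7 and GPX8 reside in the endoplasmic reticulum and lack selenium.

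Total counts ranged from 28537837 to 99074175 per library, and TH588 replicate A, the shallowest, had 21.94% of its counts in the small nucleolar RNA *SNORD3A* against 7.681% to 12.95% elsewhere. A gene with a count was found for 19506 to 19570 genes in the DMSO libraries, and for 19138, 22097 and 21672 in TH588 libraries A to C. A count of 0 allows a level of up to 3 counts, 0.0276 to 0.112 CPM (counts scaled to an equal normalized total per library), by counting error only. Of 9 ovarian or epithelial markers, *PAX8*, *WT1*, *MUC16*, *KRT7*, *KRT8*, *KRT19* and *CDH1* had 0 to 15 counts in any library, so the ovarian label was not borne out by these genes. *KRT18* and *EPCAM*, the other 2, were at 3.56 and 0.643 CPM with DMSO and 6.54 and 4.74 CPM with TH588. Markers of blood, fibroblast, endothelial and red cells summed to 13.0 to 14.7 CPM with DMSO and 15.2 to 16.5 CPM with TH588, with *CD3E* and *HBB*, 2 of the 10 markers, at 0 in all libraries. The fibroblast genes were the highest. Mean *DCN* was 6.99 CPM with DMSO and 6.44 CPM with TH588, *COL1A1* 3.96 and 3.84 CPM, and *COL1A2* 1.43 and 3.7 CPM. *DCN* and *COL1A1* were thus above *KRT18* and *EPCAM* with DMSO.

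Of the 10 genes, 3 changed after TH588. *CAT* rose 1.59-fold and *GPX4* rose 1.40-fold, while *GPX8* fell to 0.628 of its DMSO level. The most abundant member, *SOD1*, had a lower mean after TH588 that missed the threshold. *SOD2*, *GPX1*, *GPX2* and *GPX3* were at or below a few CPM and did not pass the test either, and *SOD3* and *GPX7* had almost no counts. In bulk RNA, fewer cells that express a gene and less RNA per cell cannot be told apart. Throughout, CPM values are scaled to library sizes normalized by the trimmed mean of M-values (TMM), and a change was called at an adjusted p under 0.05 in edgeR's quasi-likelihood test with Benjamini-Hochberg adjustment over the 15844 genes that passed the filter on low counts. In this comparison 49.6% of the genes tested were called, 24.2% higher and 25.3% lower. Of the 8 members tested, 2 were higher, 1 was lower and 5 were not called, counts near those shares for a list of this size. The median log2 fold change of these 8 was 0.04, and that of all genes tested was 0.019. It was -0.20 over 7 members without *GPX1*, which passed the filter only through the TH588 libraries.

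**Figure D1:**
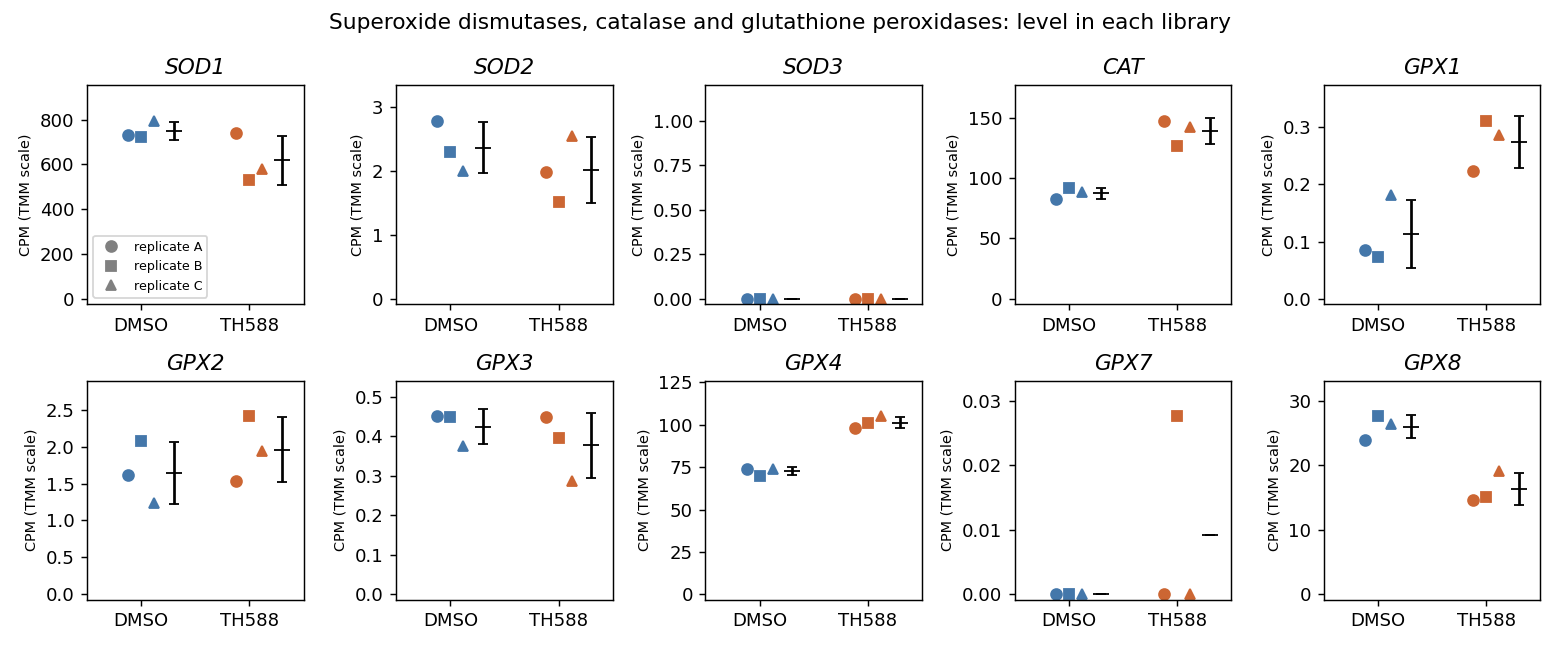
Level of each of the 10 genes (CPM, TMM scale, linear axes) in the 3 DMSO and 3 TH588 libraries; symbols mark the replicate, and black marks the mean with SD over 3 libraries (mean only where a library has 0 counts). The groups separate for *CAT*, *GPX1*, *GPX4* and *GPX8*, as they did for 57.7% of all genes tested, and *GPX1* passed the filter only through the TH588 libraries. TH588 replicate A of *SOD1* sits at 741 CPM, within the DMSO range of 722 to 796.

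The bases before the start of transcription of the 3 genes that passed the test are shown to place them in the genome and to let their composition be compared. They come from RefSeq's promoter table for GRCh38.p14, which matched 9 of the 10 members. The table gives 250 bases before a start, and the last 9 (*CAT*), 68 (*GPX4*) and 53 (*GPX8*) of them, which lie in an exon of the count table, were left out. The table holds 3 starts for *GPX4*, and its first entry is used. All are on the plus strand, at chr11:34438684-34438924 for *CAT*, chr19:1103744-1103925 for *GPX4* and chr5:55159921-55160117 for *GPX8*. Capitals mark each GC box (GGGCGG) and CCAAT box (CCAAT) on either strand, so that a match on the minus strand reads CCGCCC or ATTGG.
CAT: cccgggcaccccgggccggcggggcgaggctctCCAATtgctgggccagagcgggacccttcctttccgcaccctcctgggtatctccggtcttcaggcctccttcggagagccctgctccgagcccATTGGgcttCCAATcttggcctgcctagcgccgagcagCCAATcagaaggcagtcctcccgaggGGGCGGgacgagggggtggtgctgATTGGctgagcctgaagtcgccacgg
GPX4: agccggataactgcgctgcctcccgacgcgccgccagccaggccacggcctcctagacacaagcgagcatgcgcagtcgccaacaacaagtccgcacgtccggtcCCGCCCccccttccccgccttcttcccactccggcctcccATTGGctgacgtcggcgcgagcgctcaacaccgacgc
GPX8: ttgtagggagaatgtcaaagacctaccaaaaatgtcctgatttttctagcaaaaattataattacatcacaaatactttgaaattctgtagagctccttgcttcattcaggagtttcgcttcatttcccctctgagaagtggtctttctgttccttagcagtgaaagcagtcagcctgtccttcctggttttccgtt

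The *CAT* window held 5 CCAAT boxes, at 217, 123, 114, 85 and 35 bases before the start, and 1 GC box at 59 bases. At least 1 CCAAT box was present in 31.5% of the same window in all 35116 promoters of the table and 5 or more in 0.310%, and 41.5% held a GC box. The *GPX4* window held 1 CCAAT box at 105 bases and 1 GC box at 145 bases, which 24.3% and 31.6% of equal windows also held. No GC box or CCAAT box was matched in the *GPX8* window, and 39.6% of its bases were G or C, against 68.5% for *CAT*, 69.8% for *GPX4* and a median of 57.4% over equal windows of all promoters. TATAAA, the antioxidant response element core TGACNNNGC and the p53 half-site were not matched on either strand in any of the 3 windows. The last 68 bases before the start for *GPX4* and 53 for *GPX8* were not searched, so a match there would be missed. Over the length used for *CAT*, 10.6%, 10.5% and 5.32% of all promoters held them. These shares were 7.20%, 7.34% and 4.16% over the *GPX4* length and 7.56%, 8.14% and 4.42% over the *GPX8* length. No marked match overlaps another in the printed windows, and a match describes letters only.

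Among the superoxide dismutases, *SOD1* (ENSG00000142168) lies on chromosome 21 from 31659622 to 31668931 of GRCh38, the coordinates of the count table. *SOD1* was at 732, 722 and 796 CPM in DMSO libraries A to C and at 741, 532 and 580 CPM in TH588 libraries A to C. The groups overlapped because TH588 replicate A, the shallowest library, lay within the DMSO range. The means were 750 ± 40.3 and 618 ± 110 CPM (± SD, 3 libraries per group), and the difference was -0.28 on the log2 scale with a standard error of 0.11 (edgeR quasi-likelihood test, Benjamini-Hochberg adjusted p = 0.0571). Without TH588 replicate A the log2 fold change was -0.42, with an adjusted p of 0.000801 in the same edgeR test. Under the main settings the call thus turned on TH588 replicate A. It also depended on the processing. With all libraries kept, *SOD1* was called lower with DESeq2, limma-voom, no filter or a trend on gene length removed. Normalization by library size only gave -0.19 (edgeR adjusted p = 0.122). *SOD1* was also not called with normalization by DESeq2 size factors, with 10 counts required in every library or with the replicate block.

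*SOD2* (ENSG00000112096; chromosome 6, 159669057 to 159745186, minus strand) encodes the manganese enzyme of mitochondria. It was at 2.79, 2.29 and 2.00 CPM with DMSO and 1.98, 1.51 and 2.54 CPM with TH588. The groups overlapped, and the difference was -0.23 on the log2 scale with a standard error of 0.22 (edgeR quasi-likelihood test, Benjamini-Hochberg adjusted p = 0.414). These values are uncertain. The gene was matched by exon coordinates, since the name table lists *SOD2* under another identifier, whose exons cover 99.6% of the exon bases counted. Another gene of the table on the same strand, at 0 counts in all 6 libraries, shares 643 of the 666 coding bases of *SOD2* (96.5%), and how reads in shared exons were counted is not given in the sources used here. The *SOD2* level may therefore omit reads of its coding part. *WTAP*, on the other strand, shares 298 exon bases with *SOD2* and had 1306 to 5930 counts per library. Strandedness is not given, so reads of *WTAP* may be included there or reads of *SOD2* lost. *SOD3* (ENSG00000109610; chromosome 4, 24789912 to 24800842), the secreted form, had 0 counts in all 6 libraries.

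Catalase, *CAT* (ENSG00000121691; chromosome 11, 34438925 to 34472062), was at 82.7, 91.7 and 88.3 CPM in DMSO libraries A to C and at 148, 127 and 143 CPM in TH588 libraries A to C. Every TH588 library was above every DMSO library. Groups did not overlap, in either direction, for 57.7% of the genes tested. Mean *CAT* was 87.6 ± 4.57 CPM in the control and 139 ± 10.5 CPM in the treated cells (± SD, 3 libraries per group), or 0.67 on the log2 scale with a standard error of 0.08 (edgeR quasi-likelihood test, Benjamini-Hochberg adjusted p = 3.8e-05). It lay between 0.64 and 0.73 with each library left out in turn and was 0.52 once a smooth trend of fold change on gene length was removed.

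Of the glutathione peroxidases, *GPX4* (ENSG00000167468; chromosome 19, 1103926 to 1106791) was at 74.0, 69.7 and 74.0 CPM with DMSO and 98.0, 101 and 105 CPM with TH588. These groups did not overlap, and the replicates of each lay close together. The means were 72.6 ± 2.47 and 101 ± 3.24 CPM (± SD, 3 libraries per group), or 0.48 on the log2 scale with a standard error of 0.07 (edgeR quasi-likelihood test, Benjamini-Hochberg adjusted p = 0.000195). Leaving out each library in turn gave 0.45 to 0.52. Removing the trend on gene length lowered it to 0.27 (edgeR adjusted p = 0.00841), and to 0.26 with the replicate block as well (edgeR adjusted p = 0.0402), so its size depended on that choice more than that of *CAT*.

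*GPX8* (ENSG00000164294; chromosome 5, 55160118 to 55167071), a membrane protein of the endoplasmic reticulum, went the other way. It was at 24.0, 27.6 and 26.4 CPM with DMSO and 14.6, 15.1 and 19.1 CPM with TH588. All TH588 values were below all DMSO values. The mean fell to 16.3 ± 2.48 from 26.0 ± 1.86 CPM (± SD, 3 libraries per group), or -0.67 on the log2 scale with a standard error of 0.12 (edgeR quasi-likelihood test, Benjamini-Hochberg adjusted p = 0.000482). The range was -0.79 to -0.59 with each library left out, and the value was -0.81 with the length trend removed. Its close relative *GPX7* (ENSG00000116157; chromosome 1, 52602372 to 52609051) had 0 counts in 5 libraries and 3 counts in TH588 replicate B, too few to test.

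**Figure D2:**
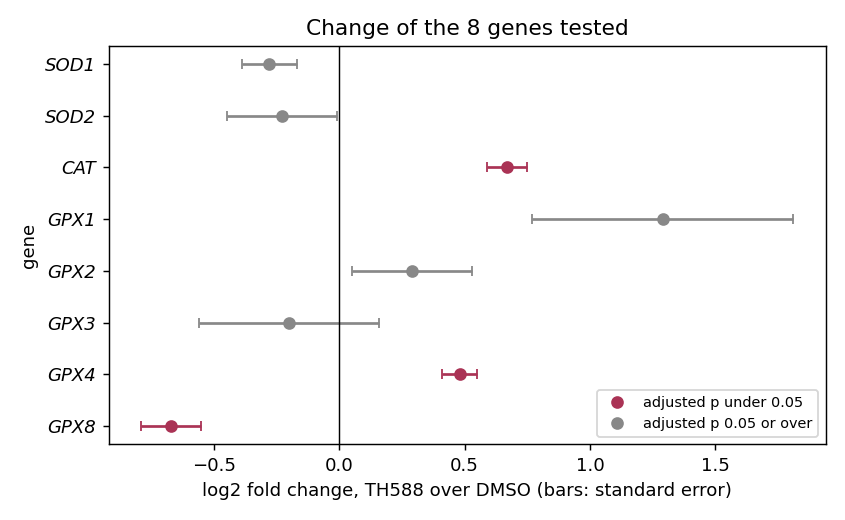
Log2 fold change (TH588 over DMSO, x axis) with its standard error for the 8 genes tested (y axis); coloured points passed an adjusted p under 0.05 in edgeR's test. *CAT* at 0.67 and *GPX4* at 0.48 lie above 0 and *GPX8* at -0.67 below it, while *GPX1*, with the widest bar (standard error 0.52), is the farthest from 0 and is not called.

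*GPX1* (ENSG00000233276; chromosome 3, 49357171 to 49358600, minus strand), the cytosolic form, was close to the counting limit. It had 7, 6 and 17 counts in DMSO libraries A to C and 6, 34 and 24 counts in TH588 libraries A to C, which were 0.0852, 0.0727 and 0.181 CPM against 0.224, 0.312 and 0.287 CPM. The groups did not overlap on the CPM scale, but the log2 fold change of 1.29 had a standard error of 0.52 and an adjusted p of 0.0586 in edgeR's quasi-likelihood test with Benjamini-Hochberg adjustment. Only 1 DMSO library passed the filter floor of 0.118 CPM (before TMM), against all 3 TH588 libraries, so *GPX1* entered the test through the group in which it was high. Among the 6082 genes tested at a mean log2 CPM under 2, 24.2% were called higher and 7.32% lower. Without DMSO replicate C the log2 fold change was 1.84 (edgeR adjusted p = 0.026). With any other library left out it lay between 1.06 and 1.39 and was not called. Of 134 windows of 100 bases in its exon, 3 (2.24%) had a second near-identical place in hg38. Its pseudogenes *GPX1P1* and *GPX1P2* held 3 counts in all. Whether the second places lie in these pseudogenes was not examined, and how reads with several matches were counted is not given.

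*GPX2* (ENSG00000176153; chromosome 14, 64939152 to 64942905, minus strand), known from the gut epithelium, was at 1.62, 2.07 and 1.24 CPM with DMSO and 1.53, 2.41 and 1.94 CPM with TH588. The groups overlapped, and the difference was 0.29 on the log2 scale with a standard error of 0.24 (edgeR quasi-likelihood test, Benjamini-Hochberg adjusted p = 0.343). *GPX3* (ENSG00000211445; chromosome 5, 151020438 to 151028993), the plasma form, was lower still, at 0.450, 0.448 and 0.374 CPM with DMSO and 0.448, 0.395 and 0.287 CPM with TH588. It overlapped as well, and the difference was -0.20 on the log2 scale with a standard error of 0.36 (edgeR quasi-likelihood test, Benjamini-Hochberg adjusted p = 0.675). A difference of the size of that standard error was not detectable at this depth. The family members outside the list, *GPX5* and *GPX6*, were not tested, with 0 counts for *GPX5* in all libraries and 1 count for *GPX6* in each of TH588 replicates A and C.

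Levels were compared between genes as RPKM (CPM per kilobase of exon, TMM scale). With DMSO, *SOD1* led at 371 ± 19.9 RPKM (SD, n = 3). *GPX4* followed at 36.0 ± 1.22, *CAT* at 26.2 ± 1.37, *GPX8* at 6.72 ± 0.481 and *GPX2* at 1.10 ± 0.278 RPKM, and the libraries of each were separate from those of the next. *SOD2* at 0.143, *GPX3* at 0.134 and *GPX1* at 0.0791 RPKM came last among the genes with counts in every library, and the pairs *SOD2* and *GPX3*, and *GPX3* and *GPX1*, overlapped. With TH588 the first 5 kept that order, at 306 ± 54.3, 50.2 ± 1.60, 41.6 ± 3.14, 4.21 ± 0.641 and 1.31 ± 0.293 RPKM. *GPX1* came next at 0.192 RPKM, above *SOD2* at 0.122 and *GPX3* at 0.119 RPKM, whose libraries overlapped. The *SOD2* level is per 16493 merged exon bases, the longest of the 10, and carries the uncertainty given above.

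**Figure D3:**
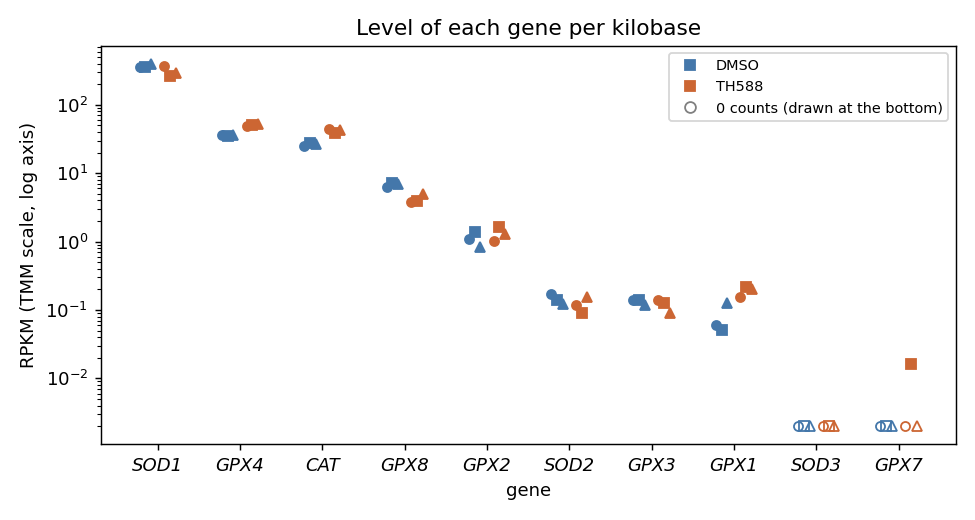
Level per kilobase (RPKM, log axis) of each of the 10 genes in every library, ordered by the DMSO mean; open symbols at the bottom are libraries with 0 counts. *SOD1* lies above 262 RPKM in all libraries, *GPX4*, *CAT* and *GPX8* form the middle, and *SOD2*, *GPX3* and *GPX1* lie within 0.0508 to 0.218 RPKM.

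Summed within a class, the superoxide dismutases gave 358 to 394 RPKM with DMSO and 263 to 367 RPKM with TH588, at least 99.9% of it from *SOD1* in every library. That share, and the *SOD2* to *SOD1* ratio below, rest on the uncertain *SOD2* level. That level may omit reads of its coding part or include reads of *WTAP*. The true *SOD2* share may therefore be higher or lower. Glutathione peroxidases summed to 43.3 to 44.6 RPKM with DMSO and 53.7 to 58.3 RPKM with TH588. The *GPX4* share of that sum was 79.9% to 83.1% with DMSO and 88.8% to 90.5% with TH588. The *GPX8* share was 14% to 16.5% with DMSO and 6.96% to 8.48% with TH588. These shares did not overlap between the groups and are within-library quantities that do not depend on the normalization. Within a library, the log2 ratio of *SOD2* to *SOD1* differed by 0.04 between the groups (exact two-sided permutation p = 0.9, adjusted 0.9 over 2 pairs). That of *GPX1* to *GPX4* was higher by 0.91 with TH588 (exact two-sided permutation p = 0.2, adjusted 0.4), and the smallest p that 3 libraries against 3 allow is 0.1. *GPX1* rested on 6 to 34 counts per library and passed the filter only through the TH588 libraries, so this ratio is a description only. A planned ratio of *GPX8* to *GPX7* could not be formed because *GPX7* was at 0.

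**Figure D4:**
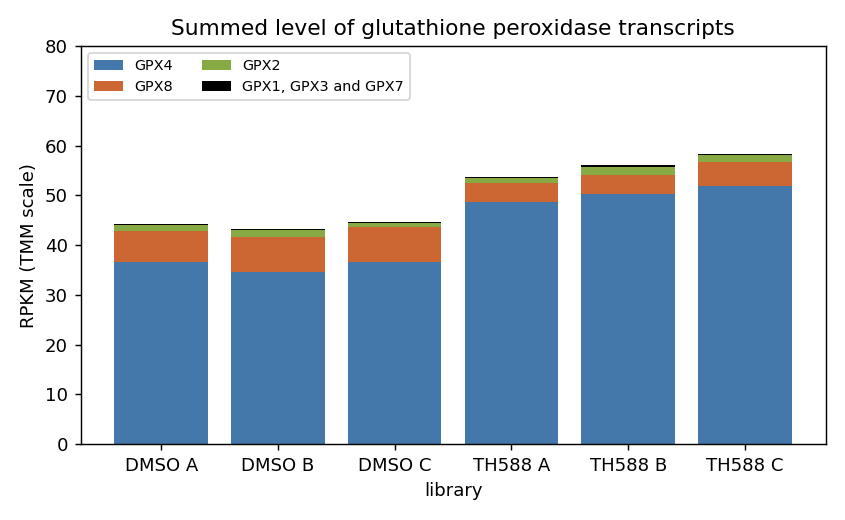
Summed level of the glutathione peroxidase transcripts (RPKM, y axis from 0) in each library (x axis), stacked by gene. The blue *GPX4* part grows from 34.5 to 36.7 RPKM with DMSO to 48.6 to 51.8 RPKM with TH588, the orange *GPX8* part shrinks from 6.19 to 7.13 RPKM to 3.78 to 4.94 RPKM, and *GPX1*, *GPX3* and *GPX7* are barely visible.

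The genes whose levels followed the 3 called members most closely were found by Pearson's r of log2(CPM + 0.5) over the 6 libraries. For *CAT* these were *TTN* (r = 0.9995) and *ASB7* (r = 0.9989), for *GPX4* *CCDC186* (r = 0.9992) and *MAST4* (r = 0.9980), and for *GPX8* *SNRPB2* (r = 0.9973) and *NCOA1* (r = 0.9971). The 6 points include the difference between the groups and share depth and normalization, so the coefficients are a description only. An r of at least 0.9 was reached by 1563 genes with *CAT*, 1636 with *GPX4* and 1607 with *GPX8*. Of *TTN*, 15.6% of the exon bases are shared with other genes of the table, which makes its value uncertain.

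The genes that supply or work beside these enzymes were described by list. Over 154 such genes in 11 lists, 135 were tested, and 39 were higher and 37 lower, with a median log2 fold change of 0.07. These were 28.9% higher and 27.4% lower, against 24.2% and 25.3% of all genes tested. In these lists every fold change is on the log2 scale, and adjusted p-values come from the same edgeR quasi-likelihood fit. Exons shared with other genes made up at most 15.3% of the bases of any gene given with a value below.

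Copper, zinc and manganese reach the dismutases through chaperones and transporters. Of 6 such genes, 2 rose and 2 fell (median 0.01). *CCS*, the copper chaperone that loads SOD1, rose from 10.4 ± 1.34 to 17.0 ± 3.07 CPM (log2 fold change 0.70, edgeR adjusted p = 0.0016). *ATP7A*, a copper exporter, rose by 0.96, and *SLC39A14*, an importer of zinc, manganese and iron, fell by 0.63. *SOD1* itself missed the threshold.

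Glutathione is the reductant of most glutathione peroxidases. Of 13 genes for its synthesis and recycling, 4 rose and 6 fell (median -0.18). *GCLM*, the modifier subunit of the rate-limiting enzyme, fell from 18.6 ± 1.44 to 8.72 ± 0.748 CPM (-1.10), and *GSR*, which regenerates reduced glutathione, fell from 400 ± 22.4 to 296 ± 34.3 CPM (-0.43, edgeR adjusted p = 0.00222). *GSS*, the glutathione synthetase, rose by 0.30 (edgeR adjusted p = 0.00905), a call that was lost with the length trend removed and the replicate block added (0.22, adjusted p = 0.0721). *GGT1*, which degrades extracellular glutathione, rose from 11.1 ± 0.601 to 61.1 ± 4.92 CPM (2.47). *GGT1* belongs to a family of near-identical copies, so its value is uncertain. *SLC7A11*, the cystine importer, was at 1.65 ± 0.294 and 1.72 ± 0.241 CPM (0.05, edgeR adjusted p = 0.854).

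Glutathione reductase draws on NADPH. Of 17 genes of NADPH supply, 16 were tested, and 2 rose and 7 fell (median -0.10). *MTHFD1*, of folate metabolism, fell by 0.85 and *PGLS*, of the pentose phosphate pathway, rose by 0.55.

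Selenocysteine has to be inserted into GPX1 to GPX4 by a dedicated machinery. Of 11 genes of selenoprotein synthesis and selenium supply, 2 rose and 1 fell (median -0.01). *SECISBP2*, which binds the selenocysteine insertion element of these mRNAs, rose by 0.30 (edgeR adjusted p = 0.0075), *TRNAU1AP* rose by 0.66, and *EEFSEC*, the elongation factor for selenocysteine, fell from 11.0 ± 0.686 to 4.95 ± 0.891 CPM (-1.13). Of 20 other selenoproteins, 18 were tested, and 2 rose and 4 fell (median -0.02). *SELENOI* fell by 0.46, and *SELENON* rose by 0.38 (edgeR adjusted p = 0.0136), a call that was lost without DMSO replicate C (adjusted p = 0.0569) or TH588 replicate C (adjusted p = 0.0578). The number that rose was 0 without TH588 replicate C, 1 without DMSO replicate B or C and 4 without TH588 replicate A. The number that fell was 7 with the length trend removed and 2 with normalization by library size only.

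Catalase enters peroxisomes through the PEX import proteins. Of 16 *PEX* genes, 3 rose and 3 fell (median 0.10). *PEX6*, part of the complex that recycles the import receptor, rose by 0.73, *PEX3*, a peroxisomal membrane biogenesis factor, fell by 0.70, and *PEX5*, the import receptor itself, was at 83.9 ± 2.22 and 87.2 ± 7.77 CPM (0.06, edgeR adjusted p = 0.611). The number that fell was 1 without DMSO replicate A or TH588 replicate C, and the number that rose was 1 with the length trend removed.

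Of 26 genes that produce superoxide or hydrogen peroxide, 14 were tested, and 9 rose and 0 fell (median 1.03). Of these 9, 6 passed the filter floor in all TH588 libraries but not in all DMSO libraries, and the median of the 8 other genes was 0.32, so the count and median are not support for a rise of the list. *ACOX3*, a peroxisomal acyl-CoA oxidase, rose from 17.0 ± 0.964 to 22.1 ± 1.03 CPM (0.38, edgeR adjusted p = 0.00586), a call that was lost with the length trend removed (0.24, adjusted p = 0.0514; with the block 0.24, adjusted p = 0.0906). Of the 9, 7 had a mean log2 CPM under 2 (*DUOX1*, *CYBA*, *NCF1*, *NOXA1*, *PAOX*, *MAOA* and *PIPOX*, named after their values were seen), 4 genes of the list rose where 10 counts were required in every library, and the value of *NCF1* is uncertain because of its near-identical pseudogenes. More genes had a count in TH588 replicates B and C than in any DMSO library, and the part of that in these low-level rises was not tested.

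Of 18 genes of lipid peroxidation and ferroptosis around GPX4, 16 were tested, and 9 rose and 3 fell (median 0.34). Of the 9, 4 averaged 2 or more on the log2 CPM scale, while 5 rose with the length trend removed. Of the 9, 3 passed the filter floor in all TH588 libraries but not in all DMSO libraries, and the median without the 4 such genes tested was 0.20. *FTL*, the ferritin light chain that stores iron, rose from 179 ± 14.8 to 344 ± 51.9 CPM (0.94), and *TFRC*, the transferrin receptor that imports it, fell from 259 ± 4.78 to 141 ± 15.9 CPM (-0.88). *FTL* has many processed pseudogenes, so reads may be split. *ACSL4*, which builds the lipids that are oxidized in ferroptosis, was at 44.9 ± 2.93 and 45.6 ± 5.43 CPM (0.02, edgeR adjusted p = 0.902).

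Around GPX8 in the endoplasmic reticulum, genes of oxidative folding were listed. Of 13, 2 rose and 6 fell (median -0.27). *ERO1A*, the oxidase that produces hydrogen peroxide there, fell from 135 ± 6.18 to 93.5 ± 7.06 CPM (-0.53), while its relative *ERO1B* rose from 5.42 ± 0.168 to 12.0 ± 1.78 CPM (1.15). The number that rose was 1 without DMSO replicate B, DMSO replicate C or TH588 replicate B. The number that fell was 1 with normalization by library size only, and 2 to 3 without DMSO replicate A, DMSO replicate C, TH588 replicate A or TH588 replicate C.

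The peroxiredoxins, thioredoxins and their reductases, the other main route of peroxide removal, served as a comparison. That list also held *TXNIP*, *SRXN1* and the glutaredoxins *GLRX*, *GLRX2*, *GLRX3* and *GLRX5*. Of its 16 genes, 4 rose and 8 fell (median -0.30), against 2 and 1 of the 8 members tested, and the difference between the lists was not tested. *TXNIP* and *GLRX* were among those that rose, and *GLRX2*, *GLRX3* and *GLRX5* among those that fell. *TXNIP*, an inhibitor of thioredoxin, rose from 14.7 ± 0.225 to 61.3 ± 3.13 CPM (2.06), and *GLRX3*, a glutaredoxin, fell from 184 ± 6.81 to 101 ± 16.0 CPM (-0.87).

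**Figure D5:**
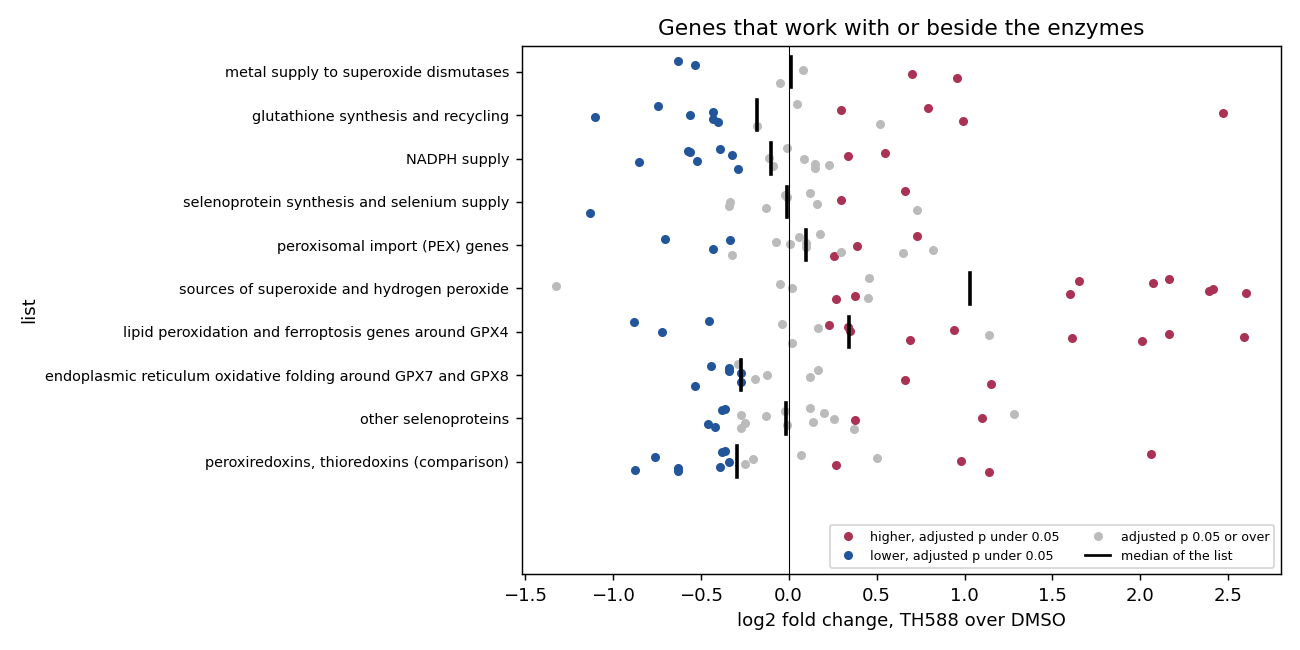
Log2 fold change (TH588 over DMSO, x axis) of each tested gene in 10 lists (y axis); red points rose and blue points fell at an adjusted p under 0.05, grey points did not pass, and black lines are list medians. The median of the sources of superoxide and hydrogen peroxide (1.03) includes 6 genes that passed the filter only through the TH588 libraries and is 0.32 without them, and that of the comparison list is -0.30.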

How the data were processed

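PolyA RNA of A2780 cells was sequenced by the authors from 3 DMSO and 3 TH588 experiments after preparation with a TruSeq kit. Per the labels, TopHat aligned the reads to GRCh38 and featureCounts 1.4.6 of the Subread package summed them by gene, and the authors deposited raw counts without normalization, beside a column of merged exon length in bases. Strandedness and the handling of shared reads are not given in the sources used here.

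Counts were compared in R 4.3.3 with edgeR 4.0.16 (TMM, default filter with a minimum count of 10, quasi-likelihood test, Benjamini-Hochberg, group as the only term). Standard errors are the log2 fold change over the square root of F. The authors' own comparison, by their methods, used DESeq2. Alternatives were DESeq2 1.42.0, limma-voom (limma 3.58.1), other normalizations and filters, each library left out, a replicate block and a gene length trend (loess span 0.5) removed. Symbols were matched by identifier for 57754 genes. Copies in hg38 were sought with minimap2 2.31, allowing 2 mismatches in 100 bases. Replicates of a group differed by 23.5 to 165 chi-square units per degree of freedom, so each counted as 1. The procedure was tested on simulated counts in which only a small set of genes changed, equally in both directions. In the data 49.6% of genes were called, so the simulation does not show how the normalization performs with so many changes. List medians without genes that passed the filter only through TH588 were chosen after seeing the data.

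The members and the lists were chosen with earlier results of these data known. Named list genes are the largest rise and fall among called genes whose groups do not overlap and whose mean log2 CPM is 2 or more, plus *GSR*, *GSS*, *CCS*, *PEX5*, *SLC7A11*, *ACSL4* and *SECISBP2* whatever their values. Some genes of the lists are counted but not reported here by name. With 3 libraries against 3, precision for genes of a few counts is limited to large changes.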

Additional observations from a re-analysis of the deposited data

How the results depend on the processing

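*CAT*, *GPX4* and *GPX8* kept their direction and their call under every alternative run. Members called lower were 2 in place of 1 with DESeq2, limma-voom, no filter and the length trend removed with or without the block, and 1 to 2 with each library left out, *SOD1* being the one added. *SOD1* was -0.28 (adjusted p = 0.0407) with DESeq2, -0.30 (0.0293) with limma-voom and -0.28 (0.00826) with no filter. It was -0.49 (0.00325) with the length trend removed and -0.51 (0.00302) with the block as well. With library size only it was -0.19 (0.122) and was not called, and it ran from -0.42 to -0.18 with each library left out. *GPX1* was 1.42 (adjusted p = 0.0462) with library size only and 1.40 (0.0311) with limma-voom. It was not called with DESeq2 (1.29, adjusted p = 0.14), no filter (1.30, 0.11) or the replicate block (1.32, 0.0959). Nor was it called with the length trend removed (1.09, 0.104) or with the block as well (1.11, 0.156). It ran from 1.06 to 1.84 with each library left out, and requiring 10 counts in every library left it without a value. The summed GPX level was 0.35 on the log2 scale and 0.45 with library size only. The *SOD2* to *SOD1* ratio ran from -0.18 to 0.19 with each library left out.

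Partner genes called higher were 25 in place of 39 with the length trend removed and the block, and those called lower were 23 in place of 37 with library size only, which moved the median of all genes to 0.126 and the share of calls that were higher from 48.9% to 60.4%; with the length trend removed these were -0.09 and 38.8%. Genes near 0 changed sign: *PEX5* was -0.03 with the length trend removed and -0.04 with the block, *SLC7A11* ran from -0.05 to 0.22 with each library left out, and *ACSL4* was -0.01 with limma-voom, -0.05 with the length trend removed, with or without the block, and -0.07 to 0.09 with each library left out. The cause of these differences was not tested.

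With the replicate block alone 7195 genes were called, 7129 of them among the 7852, and no call among the members changed; the same-letter correlations of -0.0706, -0.0831 and 0.00082 do not show that the letters pair the libraries. At these depths *GPX1* rested on 6 to 34 counts per library and *GPX7* on 0 to 3.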
